A study of Homo sapiens with 36 samples.

Results

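The genes described here are 42 that drive or mark the passage of a cell through G2 and mitosis, followed through total RNA and 2 polysome fractions of a human breast cancer cell line with altered isoleucine tRNAs. They were chosen by name, from a list of gene symbols, with earlier results of these data known. All 42 were found among the 26485 symbols of the count tables. All 42 also passed the filter on low counts in every fit. They fall into 9 roles: the cyclin-CDK engine (6 genes), other mitotic kinases (4), the chromosomal passenger complex (4), the spindle checkpoint (5), the anaphase-promoting complex pathway (3), kinetochore and centromere proteins (5), spindle motors and microtubule proteins (8), cytokinesis factors (5) and mitotic chromosome proteins (2).

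The cells were MDA-MB-231, a triple-negative breast cancer line whose source the labels give as a xenograft cell line. Every line carried both a CRISPR interference (CRISPRi) construct, which represses transcription at the site its guide names, and an overexpression construct. In control cells CRISPRi was aimed at eGFP and the overexpression construct was a control. UAU cells had the eGFP-directed CRISPRi and overexpressed tRNAIleUAU, an isoleucine tRNA named by its anticodon. GAUi cells had CRISPRi aimed at Ile GAU, an isoleucine tRNA with another anticodon, and the control overexpression construct. Isoswitch is used here for the line with both changes, CRISPRi of Ile GAU and overexpression of tRNAIleUAU. All lines were grown in 15 cm dishes and received cycloheximide, which halts ribosomes on the mRNA, at 100 ug/mL for 5 min before freezing. Each line gave total RNA, a low fraction of the polysome gradient (monosomes plus the lightest polysome peak) and a high fraction (heavier polysomes), with 3 libraries, A to C, of each. The labels do not say whether the letters are separate cultures or how many clones a line holds, so p-values reflect the spread among these libraries, which may be technical. The tRNAs themselves are not polyadenylated and were not among the genes analysed, so the change of either tRNA was not checked here.

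Entry into mitosis is driven by cyclin B bound to the kinase CDK1, which the CDC25 phosphatases activate. Polo-like and Aurora kinases then build the spindle, kinetochores attach chromosomes to it, and the spindle checkpoint holds back the anaphase-promoting complex until every chromosome is attached. That complex marks cyclin B and securin for destruction, after which the central spindle and the contractile ring divide the cell. The mRNAs of most of these proteins accumulate in G2 and M phase and are low in G1, so in bulk samples fewer cells in G2 and M cannot be told apart from less of each mRNA per cell.

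The libraries held 5192464 to 8974001 counts each. A level is the count of a gene relative to the size of its library (CPM), after scaling with TMM factors (trimmed mean of M values, which set the typical gene to no change). Summed mesenchymal markers of the line (VIM, CD44, SPARC and AXL) were at 1329 to 4507 CPM in the 36 libraries, and 6 hormone receptor and luminal genes were at 28.4 to 56.1 CPM in sum. Summed markers of fibroblasts reached at most 5.75 CPM, those of leukocytes at most 17.98 CPM with CD3E at 0 in every library, and those of endothelium at most 8.09 CPM with CDH5 at 0 in every library. The 3 GAUi libraries of total RNA differed more among themselves (chi-square of counts per degree of freedom 8.01 to 22.3 for the pairs) than the pairs of any other total RNA group (1.76 to 3.56). Library A stood apart there: CENPF was at 393, 762 and 636 CPM in A, B and C, against 563, 571 and 589.6 CPM in control.

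Many promoters of G2/M genes carry a cell cycle genes homology region (CHR), bound by the complexes that repress these genes in G1 and activate them later, together with CCAAT boxes bound by NF-Y. The RefSeq promoter table (GRCh38.p14) held 35 of the 42 genes, with 45 windows from 250 bases before to 50 after a transcription start. A CHR sequence (TTTGAA or TTCGAA, on either strand) stood in a window of 26 of the 35 genes (74.3%), against 19.5% of the 27305 genes in the table. CCAAT, on either strand, stood in 28 (80%), against 39.7%. Both stood in 22 of the 35 genes (62.9%), against 7.85%. The 120 bases before the start are shown for 4 genes that hold both and were lower on heavy polysomes of UAU cells (PLK1, CDC20, PRC1 and KIF11), for CCNB1, which was also lower and has CCAAT but no CHR letters in this stretch, and for MKI67, which holds both and was not lower there. Each reads 5′ to 3′ on the gene's own strand, with CHR letters (TTTGAA, or TTCAAA where the match is on the other strand) and CCAAT letters (or ATTGG) in capitals.
PLK1, chr16:23678769-23678888, plus strand: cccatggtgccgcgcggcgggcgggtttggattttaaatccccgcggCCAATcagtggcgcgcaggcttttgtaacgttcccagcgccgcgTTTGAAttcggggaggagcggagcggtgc
CDC20, chr1:43358861-43358980, plus strand: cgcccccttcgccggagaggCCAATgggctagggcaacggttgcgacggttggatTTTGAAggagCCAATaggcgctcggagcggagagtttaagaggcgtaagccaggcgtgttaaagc
PRC1, chr15:90994536-90994655, minus strand: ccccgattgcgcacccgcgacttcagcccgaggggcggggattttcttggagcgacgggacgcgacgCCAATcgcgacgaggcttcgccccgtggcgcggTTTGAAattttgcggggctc
KIF11, chr10:92593010-92593129, plus strand: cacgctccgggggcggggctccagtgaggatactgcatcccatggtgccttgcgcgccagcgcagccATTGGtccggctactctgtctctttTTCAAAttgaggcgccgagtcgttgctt
CCNB1, chr5:69167030-69167149, plus strand: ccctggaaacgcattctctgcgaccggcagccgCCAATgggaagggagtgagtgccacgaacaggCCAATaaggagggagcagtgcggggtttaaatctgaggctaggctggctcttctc
MKI67, chr10:128126424-128126543, minus strand: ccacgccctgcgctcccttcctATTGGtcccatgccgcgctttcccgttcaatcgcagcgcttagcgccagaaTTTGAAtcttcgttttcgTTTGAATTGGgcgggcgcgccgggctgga
In MKI67 the second CHR match and the second CCAAT match overlap by a base. Both sequences stood in 11 of the 21 matched genes that were lower on heavy polysomes of UAU cells and in 11 of the 14 matched genes that were not. A match is a run of letters and not a measured binding site.

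On heavy polysomes of UAU cells, 25 of the 42 mitotic mRNAs fell and 1, UBE2C, rose (edgeR quasi-likelihood test, adjusted p under 0.05). Of all genes tested 28.7% were called in that comparison, and 15.5% were called lower. The median log2 fold change of the 42 genes was -0.42, with 36 of 42 below 0. Over all genes tested the median was -0.0030, with 50.3% below 0. Of the 25 that fell, the smallest change was -0.23 (AURKB) and the largest -0.81 (CCNB1). Taken library by library, the median difference of the 42 genes from the control mean, on the log2(CPM + 1) scale, was -0.42 to -0.40 in the 3 UAU libraries, -0.15 to -0.11 in GAUi, -0.06 to 0.05 in control and 0.04 to 0.15 in isoswitch. Summed over the 42 genes, the high fraction held 6410 to 7028 CPM in UAU, 7619 to 7829 CPM in GAUi, 7641 to 8103 CPM in control and 8184 to 8688 CPM in isoswitch. The UAU libraries therefore lay below those of the other 3 lines on both measures. By mean CPM, UAU was the lowest and isoswitch the highest of the 4 lines for 25 of the 42 genes (59.5%), an order that held for 21.8% of all genes tested.

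**Figure D1:**
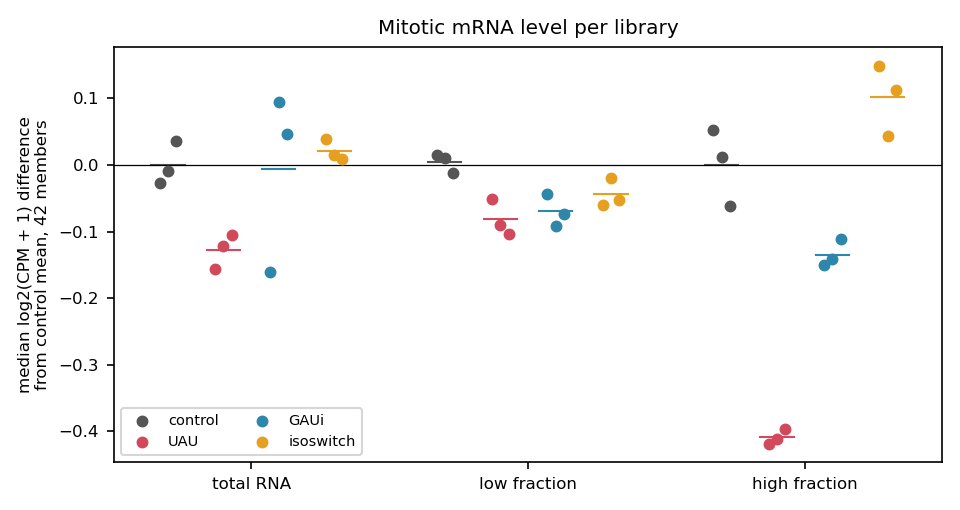
Median over the 42 mitotic genes of the log2(CPM + 1) difference from the control mean of the same fraction, 1 point per library (A to C from left to right), with a line at the mean of each group of 3. In the high fraction the 3 UAU libraries lie at -0.42 to -0.40 and the 3 isoswitch libraries at 0.04 to 0.15, while total RNA and the low fraction span a narrower range.

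Other measures moved with the UAU high fraction, and their part in the result was not tested. The share of counts held by the 10 top genes was 7.72% to 7.83% in UAU, 7.26% to 7.54% in GAUi, 6.30% to 6.83% in control and 6.13% to 6.61% in isoswitch. The summed mesenchymal markers were at 1455 to 1519 CPM in UAU, 1649 to 1994 CPM in control and 2054 to 2437 CPM in isoswitch, with none of the 4 genes at 0. The summed luminal genes were at 43.6 to 45.3 CPM in UAU and 45.4 to 52.4 CPM in control. Leukocyte markers, of which CD3E was at 0, summed to 8.37 to 10.1 CPM in UAU and 12.8 to 15.1 CPM in control. Fibroblast markers (0.545 to 1.82 CPM in UAU, 1.03 to 2.00 CPM in control) and endothelial markers (1.82 to 2.20 CPM and 1.66 to 2.28 CPM) overlapped between the lines. Leaving out each of the 6 libraries in turn left 20 (without control A) to 27 (without UAU C) of the 42 genes called. Those fits called 19.9% and 31.4% of all genes. Of the 25 fallers, 18 were called in all 6 fits that left out a library.

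Within the cyclin-CDK engine 4 of 6 genes fell. CCNB1, the cyclin that carries CDK1 into mitosis, was at 337, 326 and 317 CPM in control libraries A, B and C and at 168, 183 and 202 CPM in UAU. The groups did not overlap, and UAU held 0.57 times the control level (log2 -0.81 ± 0.08, adjusted p = 3.16e-07). The same mRNA was at 304, 326 and 294 CPM in GAUi, overlapping control, and at 399, 370.0 and 370.3 CPM in isoswitch, above every control library although the difference did not pass the test (log2 0.21 ± 0.08, adjusted p = 0.0969). CDK1, the kinase itself, was at 274, 302 and 266 CPM in control and at 171, 185 and 226 CPM in UAU, with no overlap (log2 -0.51 ± 0.09, adjusted p = 0.000209). In GAUi it was at 245, 261 and 235 CPM, below every control library, and in isoswitch at 351, 309 and 340.4 CPM, above every control library, and neither difference passed the test. CCNB2, the other B-type cyclin of mitosis, fell by 0.51 and CCNA2, the S and G2 phase cyclin, fell by 0.39 on the log2 scale. CDC25B (-0.14 ± 0.10) and CDC25C (-0.24 ± 0.17), the phosphatases that switch CDK1 on, did not pass.

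All 4 of the other mitotic kinases fell in UAU. PLK1, the polo-like kinase of mitotic entry and spindle assembly, was at 151, 133 and 134 CPM in control and at 76.4, 88.6 and 96.8 CPM in UAU (log2 -0.66 ± 0.10, adjusted p = 1.98e-05). It was at 115, 128 and 118 CPM in GAUi and at 163, 133 and 140.3 CPM in isoswitch, so that the UAU libraries lay below all others and the isoswitch libraries overlapped control. AURKA, the Aurora kinase of the spindle poles, went from 411, 434 and 413 CPM in control to 246, 247 and 311 CPM in UAU (log2 -0.63 ± 0.09, adjusted p = 1.38e-05). Its isoswitch libraries, at 559.6, 486 and 481 CPM, lay above control and passed the test (log2 0.27 ± 0.09, adjusted p = 0.044), while GAUi was at 385, 402 and 406 CPM. NEK2, which separates centrosomes, was at 93.6, 87.7 and 85.7 CPM in control and 52.4, 49.9 and 61.7 CPM in UAU, without overlap (log2 -0.68 ± 0.10, adjusted p = 1.49e-05). PBK, a kinase abundant in mitotic cells, was at 133, 156 and 134 CPM in control and 71.2, 84.6 and 121 CPM in UAU, where library C lay closest to control (log2 -0.59 ± 0.12, adjusted p = 0.000625).

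**Figure D2:**
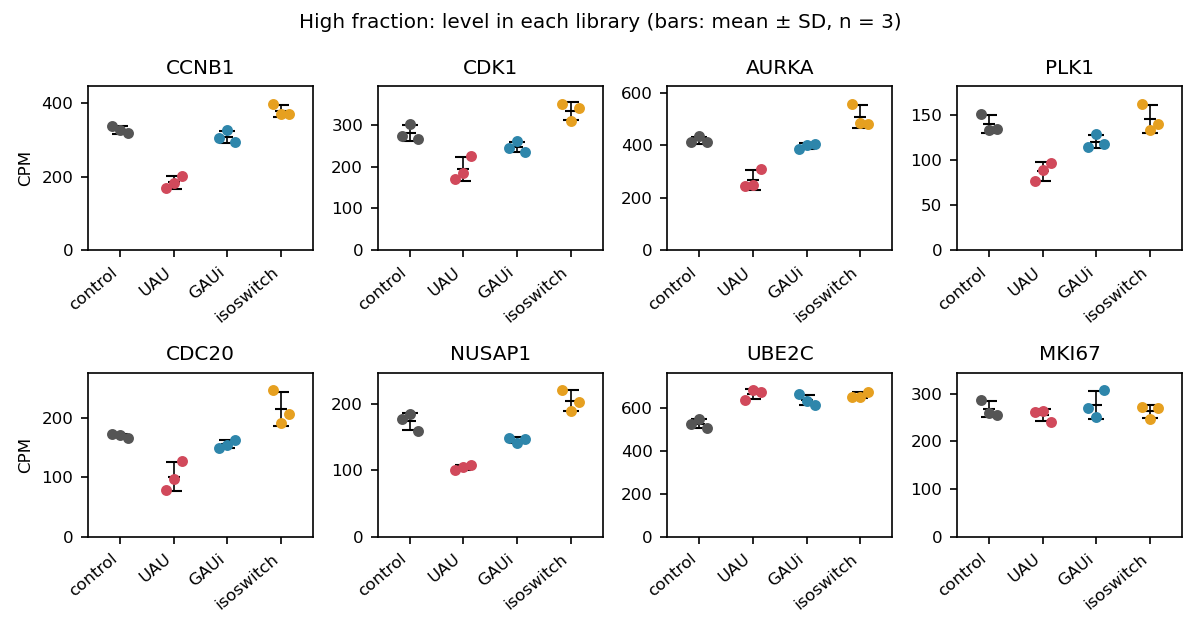
Level of 8 mitotic mRNAs in the high fraction (CPM, vertical axis from 0) in the 3 libraries of each line, with mean ± SD. For CCNB1, CDK1, AURKA, PLK1, CDC20 and NUSAP1 the UAU libraries lie below those of the other 3 lines, for UBE2C they lie above control, and for MKI67 the lines overlap.

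The spindle checkpoint was split. BUB1, BUB1B and TTK fell by 0.65, 0.61 and 0.48 on the log2 scale, while BUB3 (-0.07 ± 0.09) and MAD2L1 (0.08 ± 0.09), the adaptor and the checkpoint effector, did not pass. BUB1 was at 53.2, 40.8 and 44.3 CPM in control and at 29.5, 27.7 and 30.1 CPM in UAU, all below control (adjusted p = 0.000142). BUB3 was at 359.9, 424 and 407 CPM in control and 324, 374 and 417 CPM in UAU, which overlapped. The TTK call was the least secure of the 3, and the UAU libraries of this gene overlapped control. The call held in 3 of the 6 fits that left out a library, and its adjusted p reached 0.45. BUB1B was called in 5 of these 6 fits.

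Downstream of the checkpoint, CDC20, the activator of the anaphase-promoting complex, was at 172, 171 and 167 CPM in control and at 77.7, 97.7 and 127 CPM in UAU (log2 -0.74 ± 0.12, adjusted p = 5.22e-05). All 3 UAU libraries lay below control, with library C nearest to it. UBE2C, the ubiquitin-conjugating enzyme of the same complex, went the other way, from 523, 548 and 504 CPM in control to 636, 681 and 670.1 CPM in UAU (log2 0.36 ± 0.07, adjusted p = 0.000717). In total RNA, too, every UAU library of UBE2C lay above every control library, without passing the test. PTTG1 (securin, the protein that restrains separase) did not pass (-0.06 ± 0.07). Counts of UBE2C and PTTG1 are uncertain as far as reads were lost or split, because both genes have related intronless copies in the genome.

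Of the chromosomal passenger complex, which corrects faulty attachments, CDCA8 (borealin) and AURKB (its kinase) fell and BIRC5 (survivin, 0.15 ± 0.07) and INCENP (0.03 ± 0.16) did not pass. CDCA8 was at 185, 212 and 185 CPM in control and at 117, 126 and 170.5 CPM in UAU (log2 -0.47 ± 0.10, adjusted p = 0.00145). BIRC5 was at 469.6, 484 and 511 CPM in control and at 552, 522 and 527 CPM in UAU, every UAU library above every control library. The AURKB change was small (log2 -0.23 ± 0.08, adjusted p = 0.0358) and was called in 2 of the 6 fits that left out a library.

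At the kinetochore, NDC80 (log2 -0.65 ± 0.13, adjusted p = 0.000453) and NUF2 (-0.56 ± 0.11, adjusted p = 0.000404), partners in the complex that grips microtubules, both fell. The large corona proteins CENPE, a motor (-0.07 ± 0.09), and CENPF (-0.04 ± 0.08) did not pass, nor did CENPA, the centromeric histone (0.26 ± 0.15). Thus 2 of 5 genes of this role were lower.

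Spindle motors and microtubule proteins fell for 6 of 8 genes. NUSAP1, which bundles spindle microtubules, was at 178, 184 and 159 CPM in control and at 101, 106 and 107 CPM in UAU, with no overlap (log2 -0.72 ± 0.08, adjusted p = 1.87e-06). In GAUi it was at 149, 141 and 148 CPM and in isoswitch at 221, 189 and 204 CPM, so that every isoswitch library was above every control library. CKAP2, another microtubule-associated protein, was at 79.2, 68.8 and 76.1 CPM in control and at 47.2, 54.5 and 50.9 CPM in UAU, with no overlap (log2 -0.54 ± 0.09, adjusted p = 0.000128). TPX2, which activates Aurora A on the spindle, was at 221, 183 and 198 CPM in control and 141, 143 and 143 CPM in UAU, again apart (log2 -0.48 ± 0.09, adjusted p = 0.000194). The motor KIF11, which pushes spindle poles apart, fell by 0.63, KIF2C, which depolymerises microtubules at centromeres, by 0.44, and DLGAP5, a kinetochore-fibre protein, by 0.37 on the log2 scale. HMMR (-0.37 ± 0.18) and ASPM (0.13 ± 0.09), both found at spindle poles, did not pass.

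Among cytokinesis factors, PRC1, the bundler of the central spindle, was at 150.1, 141 and 129.7 CPM in control and at 84.4, 103 and 105 CPM in UAU (log2 -0.51 ± 0.09, adjusted p = 0.000155). The motors KIF20A and KIF23, which work at the same structure, fell by 0.71 and 0.34 on the log2 scale, and were called in 5 and 2 of the 6 fits that left out a library. ANLN, the anillin of the contractile ring (-0.22 ± 0.11), and ECT2, which activates RhoA there (-0.32 ± 0.12), did not pass. Neither of the mitotic chromosome genes was called. TOP2A, which untangles sister DNA, was at 1162, 879 and 959 CPM in control and 863, 842 and 920.3 CPM in UAU, and MKI67, the coat protein of mitotic chromosomes and a common marker of cycling cells, was at 287, 259 and 256 CPM and 262, 263 and 239.7 CPM. Both overlapped between the lines.

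**Figure D3:**
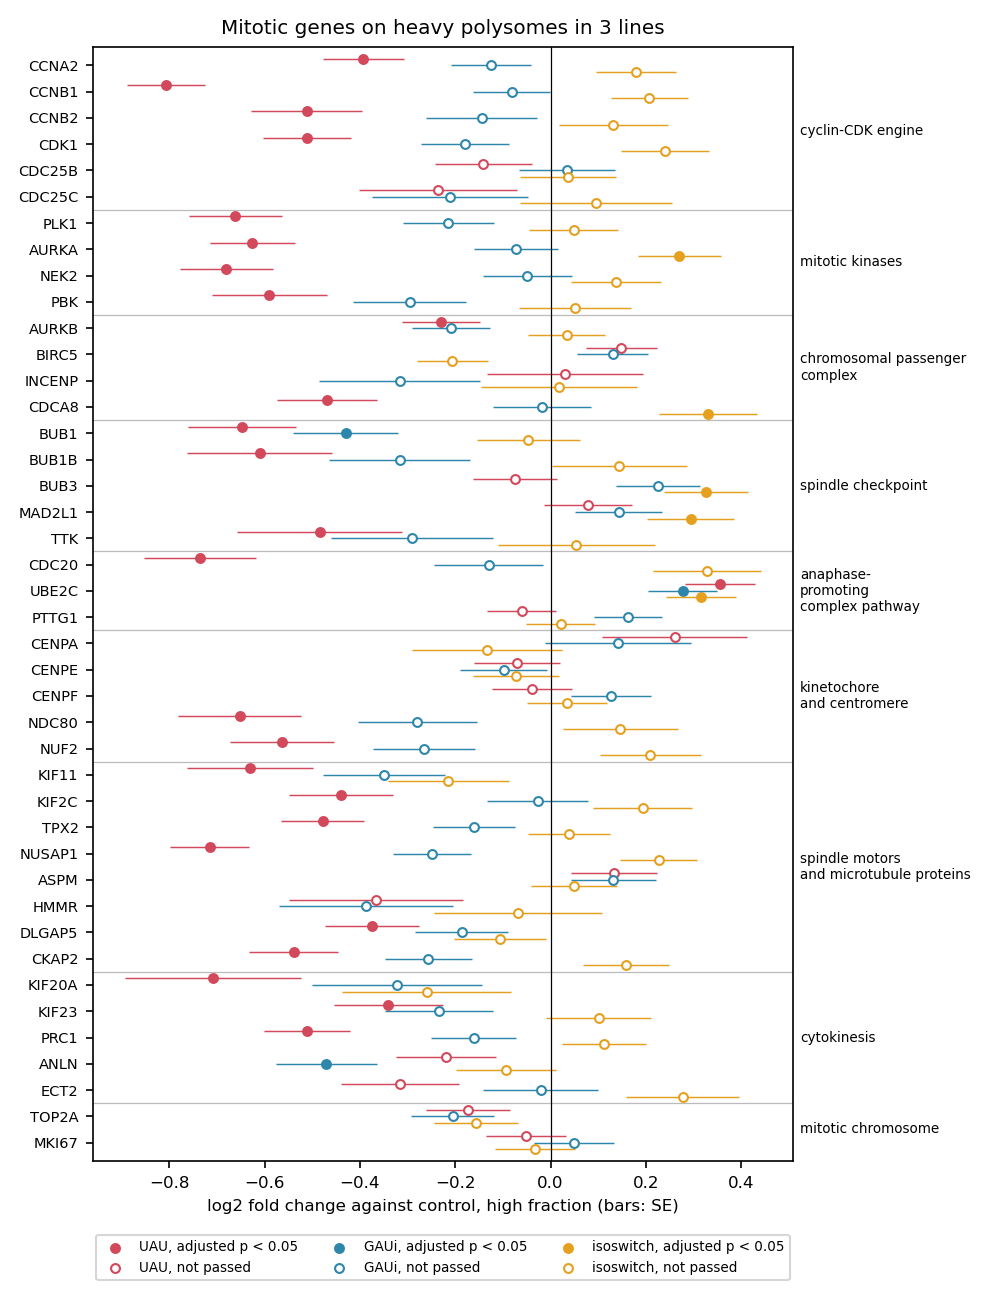
Log2 fold change against control in the high fraction (horizontal axis, bars give the SE) for the 42 genes in 3 lines, ordered by role, with filled points where the adjusted p was under 0.05. Filled UAU points lie left of 0 for 25 genes and right of 0 for UBE2C, while filled GAUi points number 3 and filled isoswitch points 5.

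In total RNA of UAU cells no mitotic gene passed the edgeR test, against 0.914% of all genes. At an unadjusted p under 0.05, 1 was higher and 6 were lower, 7 of 42 against 13.1% of all genes. DESeq2 called 2 lower, against 1.51% of all genes, and a fit of the UAU and control libraries alone called 1 higher and 10 lower, against 7.62% of all genes. The median log2 fold change of the 42 genes was -0.10, with 32 below 0, against 0.01 over all genes. CCNB1 was at 387, 418 and 407 CPM in control and 319, 342 and 335 CPM in UAU, every UAU library below control (log2 -0.25 ± 0.10, adjusted p = 0.255). PLK1 was at 133, 134 and 152 CPM and 119.6, 117 and 115 CPM, also without overlap (log2 -0.23 ± 0.09, adjusted p = 0.247). TOP2A was at 2991, 3126 and 3004 CPM and 2577, 2473 and 2359 CPM (log2 -0.27 ± 0.08, adjusted p = 0.125). For these 3 genes, and for others such as CCNB2, AURKA and CDC20, the libraries of the lines separated in total RNA without passing the test over all genes. The share of all genes whose libraries separate in this way was not computed, here or in the other comparisons. Summed over the 42 genes, total RNA held 10058 to 10193.7 CPM in UAU and 11203.5 to 11599.5 CPM in control. The median difference per library was -0.16 to -0.10 in UAU and -0.03 to 0.04 in control. Of the 25 that fell on heavy polysomes, 21 were below 0 in total RNA, against 48.4% of all genes. Their median was -0.11 there and -0.56 on heavy polysomes.

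In the low fraction of UAU cells 5 of 42 mitotic mRNAs fell and none rose, against 0.691% of all genes called, and the median of the 42 genes was -0.11. They were PLK1, CENPE, CENPF, MKI67 and PTTG1, of which PLK1 alone was also called lower in the high fraction. CENPE was at 135, 131 and 134 CPM in control and 95.5, 94.2 and 86.1 CPM in UAU (log2 -0.56 ± 0.09, adjusted p = 0.0106). CENPF was at 322, 355 and 349.7 CPM and 238, 253 and 262 CPM (log2 -0.47 ± 0.08, adjusted p = 0.0142). MKI67 was at 234, 270.4 and 236 CPM and 175, 171 and 197 CPM (log2 -0.47 ± 0.09, adjusted p = 0.0285). For each of these 3 genes, which encode 2 corona proteins and the chromosome coat, every UAU library lay below every control library. PTTG1 fell from 394, 400.1 and 362 CPM to 314, 285 and 257 CPM (log2 -0.46 ± 0.09, adjusted p = 0.0285) and PLK1 from 137, 103 and 84.2 CPM to 78.5, 69.8 and 62.8 CPM (log2 -0.64 ± 0.14, adjusted p = 0.0412). These calls were fragile: the count was 0 without UAU library B, against 0.0475% of all genes. It was also 0 when only UAU and control libraries were fitted, against 0% of all genes.

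**Figure D4:**
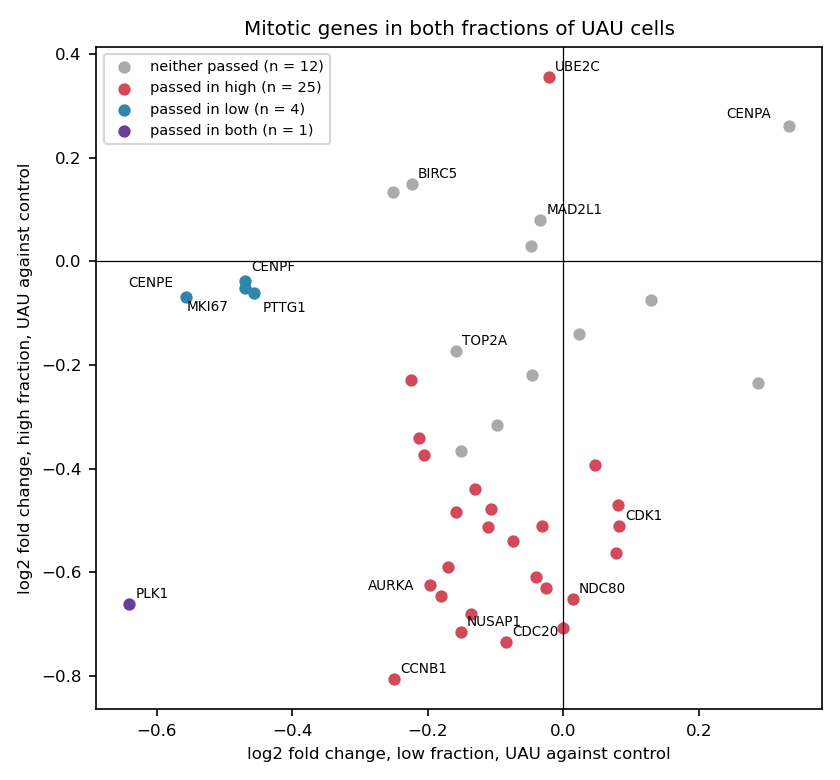
Log2 fold change of the 42 genes in UAU against control cells in the low fraction (horizontal) and the high fraction (vertical), coloured by which test passed. Of 42 genes, 25 passed in the high fraction alone (UBE2C among them, above 0), 4 in the low fraction alone (CENPE, CENPF, MKI67 and PTTG1, near 0 on the vertical axis) and PLK1 in both.

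Where a mitotic mRNA sits in the gradient of control cells differed between genes. Of the 42, 17 were higher in the high than in the low fraction and 15 were lower, against 66.3% of all genes called and 33.8% called higher. These are ratios of shares within each library and not of absolute amounts. MAD2L1 had the highest ratio (log2 1.48 ± 0.11), followed by CDK1 (1.11 ± 0.10), CCNB2 (1.09 ± 0.12), NEK2 (1.06 ± 0.11), PBK (1.04 ± 0.13), PTTG1 (1.04 ± 0.08) and CCNB1 (1.00 ± 0.10). Neighbours in this order from CDK1 to CCNB1 differed by less than their SE. ANLN had the lowest ratio (-1.09 ± 0.10), followed by TTK (-0.95 ± 0.16), BUB1B (-0.87 ± 0.13), TOP2A (-0.87 ± 0.12) and HMMR (-0.85 ± 0.17), which again differed from their neighbours in the order by less than their SE from TTK on.

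In UAU cells the high-to-low ratio fell for 11 mitotic genes and rose for 6, against 6.53% of all genes called and 3.34% called lower. Under TMM scaling 48.9% of all called genes were higher, and under DESeq2 size factors 61.3% were. The genes whose ratio fell were CDC20 (log2 -0.64 ± 0.16, adjusted p = 0.015), CDK1 (-0.59 ± 0.14, adjusted p = 0.0107), CCNB1, NUSAP1, NEK2, CDCA8, NDC80, NUF2, KIF11, CKAP2 and PRC1, from -0.46 (CKAP2) to -0.66 (NDC80). The ratio is computed from the high-fraction and low-fraction libraries described above, so it is not a separate measurement of their levels. The ratio rose for CENPE (log2 0.49 ± 0.13, adjusted p = 0.0172), CENPF (0.44 ± 0.12), MKI67 (0.43 ± 0.13), PTTG1 (0.40 ± 0.11), ASPM (0.39 ± 0.12) and BIRC5 (0.38 ± 0.11). Of these 6, CENPE, CENPF, MKI67 and PTTG1 were among the genes called lower in the low fraction. The count of 17 dropped to 4 without UAU library A of the high fraction and was 21 without library C of that group. The number that rose was 0 to 6 in the fits that left out a library. Without a filter on low counts 2 rose and 11 fell, against 4.2% of all genes called. Over all genes, the fits that left out a library called 367 to 1189, against 833 in the full fit.

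Relative to total RNA, the high-fraction level in UAU cells fell for 7 of the 42 genes and rose for none, against 7.32% of all genes called and 3.75% called lower. They were BUB1B (log2 -0.75 ± 0.20, adjusted p = 0.02), BUB1 (-0.62 ± 0.17), NUSAP1 (-0.62 ± 0.14), CDC20 (-0.61 ± 0.16), CDK1 (-0.56 ± 0.12), CCNB1 (-0.52 ± 0.13) and NUF2 (-0.52 ± 0.15). The count was 4 without control library A of the high fraction and 13 without UAU library C of that fraction. Over all genes, the fits that left out a library called 457 to 1329, against 918 in the full fit.

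**Figure D5:**
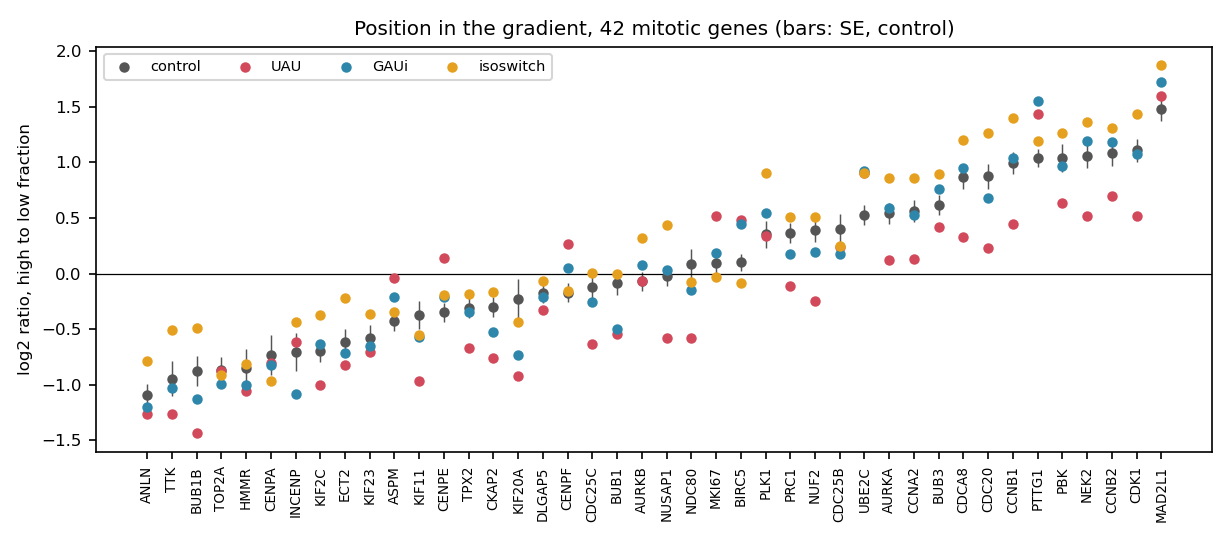
Log2 ratio of the high to the low fraction (vertical axis) for the 42 genes, ordered by the ratio in control cells (bars give its SE), in the 4 lines. Control ratios run from -1.09 (ANLN) to 1.48 (MAD2L1), and UAU points lie below control for genes such as CDC20 and CDK1 and above it for CENPE, CENPF and MKI67.

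In GAUi cells, with CRISPRi aimed at Ile GAU and no tRNA overexpressed, 3 mitotic mRNAs passed the test on heavy polysomes. BUB1 and ANLN fell and UBE2C rose, against 10.1% of all genes called. At an unadjusted p under 0.05, 14 were lower and 3 higher, 40.5% of the 42 against 25.2% of all genes. ANLN was at 76.5, 70.3 and 61.6 CPM in control and 49.3, 52.9 and 48.3 CPM in GAUi, with no overlap (log2 -0.47 ± 0.11, adjusted p = 0.00525). BUB1 was at 34.5, 32.7 and 35.7 CPM in GAUi (log2 -0.43 ± 0.11, adjusted p = 0.0135), all below the control values given above. UBE2C was at 661, 633 and 610.5 CPM, all above control (log2 0.28 ± 0.07, adjusted p = 0.0159). None of these 3 calls survived in every fit that left out a library, since the count was 0 without control A, against 4.7% of all genes. A fit of GAUi and control alone called 8, against 14.5% of all genes. The median log2 fold change of the 42 genes was -0.16, with 32 below 0, against 50.8% of all genes below 0.

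In the low fraction of GAUi cells AURKB and PTTG1 fell, 2 of 42 against 3.4% of all genes. None did without GAUi library A, B or C, where 1.4%, 1.54% and 1.41% of all genes were called. AURKB was at 283, 355 and 292 CPM in control and 249, 249 and 248 CPM in GAUi (log2 -0.35 ± 0.09, adjusted p = 0.0417). PTTG1 was at 304, 326 and 297 CPM in GAUi (log2 -0.35 ± 0.09, adjusted p = 0.0353). Both GAUi groups lay below all control libraries of the fraction. PTTG1 was also the 1 mitotic gene whose high-to-low ratio changed in GAUi (log2 0.52 ± 0.11, adjusted p = 0.0424), against 0.196% of all genes, and this call too was lost without some libraries, control A of the low fraction among them. The high-to-total ratio changed for no mitotic gene by edgeR or DESeq2, against 0.718% of all genes by edgeR, with 1 higher and 8 lower at an unadjusted p under 0.05, against 14.8% of all genes. Without GAUi library A of total RNA, 6 were lower, against 1.71% of all genes.

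In total RNA of GAUi cells PBK and TOP2A fell and BUB3 rose, 3 of 42 against 10.1% of all genes. PBK was at 158, 154 and 158 CPM in control and 67.7, 116 and 115 CPM in GAUi, lowest in library A (log2 -0.66 ± 0.14, adjusted p = 0.00439). TOP2A was at 2025, 2368 and 2696 CPM in GAUi, all below the control libraries (log2 -0.37 ± 0.08, adjusted p = 0.00595). BUB3 was at 341, 341 and 359 CPM in control and 443, 439.7 and 441 CPM in GAUi, with no overlap (log2 0.34 ± 0.07, adjusted p = 0.0047). The library that stood apart, GAUi A, decided this count: without it 14 of the 42 genes were called, 11 higher and 3 lower, while 17.1% of all genes were called, 7.88% higher and 9.19% lower. CENPE (0.41), MKI67 (0.40) and BUB1B (0.37) had the highest log2 fold changes in that fit, and PBK (-0.43), AURKB (-0.29) and TOP2A (-0.26) the lowest. CENPE was at 215, 426 and 289 CPM in the 3 GAUi libraries and at 258, 280.0 and 275 CPM in control, so library A lay below control and B and C above it.

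In the isoswitch line, with both constructs aimed at isoleucine tRNAs, 5 of 42 mitotic mRNAs rose on heavy polysomes and none fell, against 11% of all genes called and 3.67% called higher. The median log2 fold change was 0.07, with 11 of 42 below 0, against 50.8% of all genes below 0. BUB3 was at 537, 472 and 493 CPM (log2 0.33 ± 0.09, adjusted p = 0.0162), above the control libraries given above. MAD2L1 was at 88.1, 89.3 and 79.5 CPM in control and 105, 102 and 111 CPM in isoswitch (log2 0.29 ± 0.09, adjusted p = 0.0341). CDCA8 was at 264, 235 and 238 CPM (log2 0.33 ± 0.10, adjusted p = 0.0356), again above control. UBE2C was at 651, 647 and 674 CPM (log2 0.32 ± 0.07, adjusted p = 0.00512), and with AURKA, given above, it completes the 5. All 5 groups of isoswitch libraries lay above their controls. The count was 1 without isoswitch library A and 8 without isoswitch library B, against 5.37% and 11% of all genes.

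In total RNA of the isoswitch line BUB3 rose, at 419.7, 429.9 and 404 CPM, all above control (log2 0.29 ± 0.07, adjusted p = 0.0274). That was 1 of 42 against 4.05% of all genes, and it was lost when any of the 6 libraries compared was left out. A fit of the isoswitch and control libraries alone called 6, 4 higher and 2 lower, against 15.8% of all genes. In the low fraction ANLN fell from 152, 137 and 150.3 CPM to 101, 129.6 and 112 CPM (log2 -0.38 ± 0.10, adjusted p = 0.0472), 1 of 42 against 2.58% of all genes. No mitotic gene was called without control library A, against 1.77% of all genes. The high-to-low ratio changed for no mitotic gene by edgeR, against 0.00784% of all genes, but 15 were higher and none lower at an unadjusted p under 0.05, 35.7% of the 42 against 12.6% of all genes. The median was 0.22, and DESeq2 called 1, against 1.05% of all genes. Without control library B of the low fraction, edgeR called 3 higher, against 0.959% of all genes. The high-to-total ratio changed for none by edgeR or DESeq2, against 0% of all genes by edgeR, with 2 higher and none lower at an unadjusted p under 0.05, 4.76% of the 42 against 5.17% of all genes.

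The test of the difference itself, the effect of tRNAIleUAU overexpression in cells with Ile GAU CRISPRi minus its effect in cells with eGFP CRISPRi, gave 28 mitotic genes with a higher value and 2 with a lower on heavy polysomes. Of all genes tested 35.7% were called, 18.1% higher. The median of the 42 genes was 0.68 and that of all genes -0.01. CDC20 (log2 1.19 ± 0.16, adjusted p = 3.85e-06), NUSAP1 (1.19 ± 0.12, adjusted p = 8.95e-08) and CCNB1 (1.10 ± 0.11, adjusted p = 1.49e-07) had the highest values. BIRC5 (-0.49 ± 0.11, adjusted p = 0.000714) and UBE2C (-0.32 ± 0.10, adjusted p = 0.0182) were the 2 lower. Between 27 (without control A) and 33 (without UAU C) genes were called when each library was left out in turn. Those fits called 30.5% and 38.7% of all genes. In the low fraction 3 genes were called, all higher, against 0.233% of all genes: PTTG1, MKI67 and CENPF. None was called without UAU library B, GAUi library A or C, or isoswitch library A or C, against 0% of all genes in each fit. The same held without isoswitch library B, against 0.0792% of all genes. In total RNA none was called by edgeR, against 0.0243% of all genes, with 7 higher and none lower at an unadjusted p under 0.05, 16.7% of the 42 against 10.0% of all genes. DESeq2 called 1 there, against 0.332% of all genes.

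The same overexpression within the Ile GAU CRISPRi background, isoswitch against GAUi, was compared after the values had been seen. On heavy polysomes 17 of 42 genes rose and 1, BIRC5, fell, against 15.8% of all genes called and 6.58% called higher. NUSAP1 (log2 0.48 ± 0.08, adjusted p = 0.000367), NUF2 (0.47 ± 0.11, adjusted p = 0.00348), CDC20 (0.46 ± 0.11, adjusted p = 0.00727) and CDK1 (0.42 ± 0.09, adjusted p = 0.00271) were among those that rose. BIRC5 went from 536, 522 and 541 CPM in GAUi to 408, 450.5 and 418 CPM in isoswitch, without overlap (log2 -0.34 ± 0.07, adjusted p = 0.003). This comparison and that of UAU with control share no library. Of the 25 genes that fell with the construct in eGFP cells, 16 (64%) rose with it in Ile GAU CRISPRi cells, which is 94.1% of the 17 risers, the other being ANLN. Over all genes, 557 of the 1862 that fell (29.9%) were among the 788 that rose, or 70.7% of these. The number called fell to 6 without GAUi library A, where 8.2% of all genes were called.

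The genes around the mitotic set, from lists named by function, did not all move with it on heavy polysomes of UAU cells, where 13.1% of all genes rose and 15.5% fell. Of 16 transcription regulators of the mitotic program 4 rose and 3 fell. FOXM1, the factor that activates G2/M genes, rose from 139.8, 143 and 169 CPM in control to 174, 172 and 196 CPM (log2 0.29 ± 0.09, adjusted p = 0.019), and MYBL2, its partner in the MuvB complex, rose from 167, 166 and 182 CPM to 241, 200.1 and 207 CPM (log2 0.36 ± 0.09, adjusted p = 0.00323). Every UAU library of both genes lay above every control library. RBBP4, the histone-binding subunit of MuvB, fell (-0.62 ± 0.11, adjusted p = 0.000137) and E2F4, a repressor of cell cycle genes, rose (0.37 ± 0.12, adjusted p = 0.0189). Of 14 brakes on G2 and checkpoint genes 2 rose and 4 fell. PPP2R2A, a regulatory subunit of the phosphatase that opposes CDK1, fell (-0.66 ± 0.09, adjusted p = 6.03e-06), ARPP19, an inhibitor of that phosphatase, rose (0.43 ± 0.09, adjusted p = 0.00136) and CLSPN, a checkpoint adaptor, fell (-0.40 ± 0.09, adjusted p = 0.00158). WEE1, the kinase that restrains CDK1 (-0.20 ± 0.14), and CDKN1A, the CDK inhibitor p21 (-0.03 ± 0.10), did not pass.

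The counts of the next lists stand against the same 13.1% of all genes that rose and 15.5% that fell. Of 16 tested subunits and regulators of the anaphase-promoting complex 2 rose, ANAPC11 (0.51 ± 0.09, adjusted p = 0.000147) and ANAPC13 (0.35 ± 0.11, adjusted p = 0.0167), and 1 fell, CDC27 (-0.24 ± 0.09, adjusted p = 0.0406). Of 19 condensin and cohesin genes 8 fell and none rose, among them RAD21, the cohesin subunit that separase cleaves (-0.48 ± 0.08, adjusted p = 8.28e-05), SMC3 (-0.63 ± 0.11, adjusted p = 9.18e-05) and SMC2 (-0.48 ± 0.10, adjusted p = 0.000794). Of 19 further spindle and cytokinesis genes 8 fell, such as TACC3 (-0.54 ± 0.09, adjusted p = 0.000106) and KPNA2 (-0.54 ± 0.11, adjusted p = 0.000572), and 1 rose. Of 24 further kinetochore genes 7 rose and 2 fell, with ZWINT at 237, 251 and 227 CPM in control and 308, 317 and 316 CPM in UAU (0.41 ± 0.08, adjusted p = 0.000244), CENPW higher (0.32 ± 0.09, adjusted p = 0.00958) and CENPQ lower (-0.42 ± 0.09, adjusted p = 0.00149). Of 30 replication and S phase genes 18 fell and 1 rose. CDC6, which loads the replicative helicase, was at 90.4, 70.8 and 80.1 CPM and 46.2, 43.2 and 52.4 CPM (-0.74 ± 0.10, adjusted p = 8.69e-06), RRM2, of the enzyme that makes deoxynucleotides, at 102, 104 and 104 CPM and 56.5, 56.7 and 72.9 CPM (-0.71 ± 0.10, adjusted p = 8.69e-06), and PCNA, the sliding clamp, at 155, 178 and 152 CPM and 94.00, 109 and 119 CPM (-0.57 ± 0.10, adjusted p = 8.30e-05). Median log2 fold changes were -0.35 for the replication list, -0.24 for the spindle list, -0.21 for condensin and cohesin and 0.14 for the further kinetochore list, against -0.0030 for all genes tested.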

How the data were processed

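Raw read counts per gene symbol were deposited for each of 36 libraries, made from 500 ng RNA with a 3' mRNA kit (Lexogen QuantSeq) per the labels' protocols. Per the submitters' processing notes, the tools were STAR, featureCounts and DESeq2, with build hg38. Their versions, the annotation and the strand setting were not given in the sources used here. Where strand was ignored, reads of overlapping antisense genes cannot be told apart. The 42 genes and all lists were chosen with earlier results of these data known.

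Counts were tested with edgeR 4.0.16 in R 4.3.3 (glmQLFit, glmQLFTest) after filterByExpr and TMM scaling. Fits held the 12 libraries of a fraction, or 24 of the low and high fractions or of total RNA and the high fraction, with Benjamini-Hochberg adjustment over all genes tested and calls at an adjusted p under 0.05. Standard errors (SE) were taken as the log2 fold change over the root of the F statistic. An interaction is isoswitch minus GAUi, minus UAU plus control. Values in every library are given for called genes by smallest p, up to 8 for the comparison with most calls and up to 4 for others, for the most abundant gene of each role and for CCNB1, CDK1, PLK1, AURKA and MKI67. KIF11 was added for its promoter, and CENPF and CENPE in total RNA after values were seen. For UBE2C in total RNA only the overlap of libraries is given. Up to 3 called genes per other list were named, with FOXM1, MYBL2, WEE1 and CDKN1A. Library totals were 5192464 to 8974001 counts, and counting error understates the error since no molecular identifiers were used. Alternatives were DESeq2 1.42.0, its size factors, no filter, a replicate block, only the groups compared, and leaving out each library. Promoters are from RefSeq; protein sequences were not used here. A marker gene of the lists is not reported here.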

Additional observations from a re-analysis of the deposited data

Results flagged for a closer look

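For 33 values, 30 on heavy polysomes and 3 in the low fraction, the effect of tRNAIleUAU overexpression differed between the Ile GAU CRISPRi and the eGFP CRISPRi backgrounds by edgeR's interaction test (adjusted p under 0.05). The values below are log2 differences, the effect in the Ile GAU CRISPRi background minus that in the eGFP background, and the share of all genes that passed is given with each count above.

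On heavy polysomes the cyclin-CDK genes CCNB1 (1.10), CDK1 (0.93), CCNB2 (0.79) and CCNA2 (0.70) had higher values. So did the kinases AURKA (0.97), PBK (0.94), PLK1 (0.92) and NEK2 (0.87), the checkpoint genes BUB1B (1.07), BUB1 (1.03) and TTK (0.83), and CDC20 (1.19), the activator of the anaphase-promoting complex. Kinetochore genes NDC80 (1.08) and NUF2 (1.04) and passenger genes CDCA8 (0.82) and AURKB (0.47) were in the same list. The spindle genes were NUSAP1 (1.19), CKAP2 (0.95), KIF11 (0.76), HMMR (0.69), TPX2 (0.68), KIF2C (0.66) and DLGAP5 (0.45), and those of cytokinesis PRC1 (0.78), KIF20A (0.77), KIF23 (0.68), ECT2 (0.61) and ANLN (0.60). Survivin, BIRC5 (-0.49), and the ubiquitin-conjugating enzyme UBE2C (-0.32) had lower values. Among these high-fraction calls, HMMR lost its call in 9 of 16 other settings. KIF20A and UBE2C lost theirs in 3 each, and DLGAP5 and TTK in 1 each. In the low fraction PTTG1 (0.69), MKI67 (0.63) and CENPF (0.60) had higher values, each lost under the replicate block. Each was also lost without UAU library B, GAUi library A or C, or isoswitch library A, B or C. Of 16 other settings, PTTG1 lost its call in 8, MKI67 in 11 and CENPF in 9.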

How the results depend on the processing

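The number of mitotic genes called on heavy polysomes of UAU cells was 26 in the fit reported, 26 with size factors in edgeR, 25 with DESeq2, 26 without a filter on low counts, 26 with a replicate block and 24 from UAU and control libraries alone. In the same order, 28.7%, 28.6%, 25.7%, 18.2%, 28.3% and 26.3% of all genes were called. Named gene results numbered 154. None of their 1966 values under other settings reversed, 290 lost the call, and 81 of the 154 kept it under every setting run. Counts that left the range of 1.5 times were these, with cause not tested. DESeq2 called 2 for UAU in total RNA, 3 for isoswitch and 5 for the interaction in the low fraction, 1 for the interaction in total RNA, and 3 (GAUi) and 1 (isoswitch) for the high-to-low ratio. In the same order it called 1.51%, 3.06%, 1.66%, 0.332%, 2.03% and 1.05% of all genes. Without a filter the counts were 1 for UAU, 2 for isoswitch, 2 for the interaction and 1 for isoswitch against GAUi in total RNA, 4 for GAUi and 2 for isoswitch in the low fraction, and 1 for the isoswitch high-to-low ratio. The shares of all genes were 1.22%, 3.39%, 0.49%, 1.42%, 3.68%, 2.67% and 1.04% in the same order. From the 2 groups compared alone, they were 11 (UAU), 0 (GAUi) and 6 (isoswitch) in total RNA, against 7.62%, 2.74% and 15.8% of all genes. In the low fraction they were 0 for each line, against 0% (UAU), 2.26% (GAUi) and 0.873% (isoswitch) of all genes. For GAUi in the high fraction the count was 8, against 14.5%. With a replicate block the counts were 2 (UAU), 0 (GAUi), 0 (isoswitch) and 0 (interaction) in the low fraction and 0 for the GAUi high-to-low ratio. In the same order, 0.177%, 2.35%, 1.74%, 0% and 0.165% of all genes were called. The labels do not say whether the letters pair the libraries, and correlations over 3 libraries a group cannot exclude it. Same-letter deviations correlated above 0.1 in 8 of 54 pairs within a fraction and 7 of 36 within a line. A library correlated best with its own letter in 15 of 54 and 14 of 36 cases. Between control and UAU in the high fraction this held for A, B and C (r = 0.07, 0.13 and 0.07).

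Leaving out each library in turn gave 20 to 27 genes for UAU, 0 to 4 for GAUi, 1 to 8 for isoswitch, 27 to 33 for the interaction and 6 to 18 for isoswitch against GAUi in the high fraction. In total RNA it gave 3 to 14 for GAUi, 0 to 0 for isoswitch, 0 to 1 for the interaction and 0 to 7 for isoswitch against GAUi. In the low fraction it gave 0 to 5 for UAU, 0 to 3 for GAUi, 0 to 3 for isoswitch and 0 to 4 for the interaction. For the high-to-low ratio it gave 4 to 21 (UAU), 0 to 2 (GAUi) and 0 to 3 (isoswitch), and for the high-to-total ratio 4 to 13 (UAU) and 0 to 6 (GAUi). Counts over all genes moved too. In the high fraction they were 2371 to 3809 for UAU, 563 to 980 for GAUi and 651 to 1333 for isoswitch. They were 3580 to 4695 for the interaction and 772 to 1839 for isoswitch against GAUi there. For GAUi in total RNA they were 531 to 2134, and for UAU in the low fraction 6 to 209. Without control library B of the low fraction they were 209 for UAU, 760 for GAUi, 675 for isoswitch and 167 for the interaction. With all libraries of that fraction they were 86, 423, 321 and 29. For the isoswitch high-to-low ratio the count was 469 without that library, against 1. All 42 genes passed the filter on low counts, and 3 libraries a group limit how small a change could be detected.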

Other observations

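On heavy polysomes of GAUi cells, where 5.48% of all genes fell and 4.66% rose, 7 of 30 replication and S phase genes fell and 1 rose, among them RRM2 at 79.05, 79.7 and 76.04 CPM (log2 -0.40 ± 0.09, adjusted p = 0.00791) and CDC6 at 60.1, 65.9 and 65.9 CPM (log2 -0.33 ± 0.10, adjusted p = 0.0311), both below the control libraries. Of 19 condensin and cohesin genes 3 fell there and none rose, SMC3 (log2 -0.36 ± 0.10, adjusted p = 0.0256) and SMC2 (-0.31 ± 0.10, adjusted p = 0.0458) among them. In the isoswitch line, where 7.36% of all genes fell and 3.67% rose, 4 of 24 further kinetochore genes fell and 1 rose, with CENPW at 67.7, 81.7 and 66.2 CPM (log2 -0.29 ± 0.09, adjusted p = 0.0404) and CENPQ at 117, 112 and 109 CPM (log2 0.35 ± 0.09, adjusted p = 0.0121). CENPW libraries lay below every control library and CENPQ libraries above. WEE1, the kinase that restrains CDK1, was at 36.1, 28.03 and 33.1 CPM in isoswitch and 22.96, 25.5 and 22.9 CPM in control, without overlap (log2 0.44 ± 0.13, adjusted p = 0.0263), and MYBL2 fell to 127, 139.7 and 145 CPM (log2 -0.33 ± 0.09, adjusted p = 0.0149).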
